A study of Danio rerio with 80 samples.

Results

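The genes described here are 150 genes whose transcripts were more abundant in whole zebrafish embryos at 72 h post-fertilization (hpf) than at 48 hpf. They were selected on measured values in the 16 libraries of embryos exposed to 0.133 µM benzo[a]pyrene (BaP) or 0.133 µM 6-methylbenzo[a]pyrene (6-MBaP). In those libraries each count was scaled to the library total (CPM, counts per 1000000 of the total), and 7035 of 32520 gene identifiers had a mean of 10 CPM or more at 72 hpf. Of these, the 150 with the largest log2((mean CPM at 72 hpf + 1)/(mean CPM at 48 hpf + 1)) were taken. Genes whose symbols began with stems of pancreatic digestive enzymes, cone opsins, cone arrestin, or photoreceptor transducin or phosphodiesterase were left out before ranking. Of the genes left out, 19 ranked above the last gene taken. The last genes inside the limit were *ECRG4* (ENSDARG00000056087), *cldn7a* (ENSDARG00000036376) and *MYL2* (ENSDARG00000104722), with rule values of 2.06, 2.05 and 2.05, and the first outside it were *chia.2*, *cyb5r2* and *LPIN1*, with 2.04, 2.04 and 2.03. The rise between the times in these 2 exposures is how the genes were found, so no test compares those libraries. They enter no main fit and only the alternative with all groups in the fit, and their values are given as a description only.

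All embryos were of the 5D wild-type line, had their chorions removed and were held in 1% DMSO from 6 hpf by the sample labels or 7 hpf by the study's methods. The exposed groups received 8-methylbenzo[a]pyrene (8-MBaP), BaP or 6-MBaP, each at 0.133, at 1.33 or at 13.3 µM, and the Control group received DMSO alone. Each of these 10 exposures was sampled at 72 and 48 hpf as 4 libraries, called pools A to D here, each from 6 pooled whole embryos. Each compound and concentration had 1 plate and the controls had 1 plate, so plate and exposure cannot be told apart, and p-values measure the spread between pools of 1 plate.

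Between these times a zebrafish embryo hatches and becomes a larva: cones and rods mature, the liver, pancreas and intestine take on their functions, jaw cartilage forms, and fast muscle fibres switch to later isoforms of their contractile proteins. BaP is a polycyclic aromatic hydrocarbon of fused aromatic rings, and its methyl derivatives carry 1 methyl group at the numbered carbon. Such compounds can bind the aryl hydrocarbon receptor (AHR), a transcription factor that induces *cyp1a* and genes of conjugation and transport.

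The 80 libraries held 4838752 to 8779891 counts (median 6467821), and no library had fewer than 131 of the 150 genes with a count. The AHR target *cyp1a* (ENSDARG00000098315), not among the 150, had a median level at 72 hpf of 4.27 CPM in Control pools. It was 487, 1189 and 1244 CPM at the low, middle and high concentration of 8-MBaP, 26.8, 135 and 286 CPM at those of BaP, and 8.41, 10.5 and 28.2 CPM at those of 6-MBaP. Gene names come from a table of Ensembl identifiers, and symbols in capitals are those of human counterparts, given to 51 of the 150 genes, while 99 carried a zebrafish symbol. Whole embryos were sequenced in bulk, so fewer cells of a type and less RNA per cell cannot be told apart at any value below.

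The first question was whether the genes behaved in unexposed embryos as they did in the exposures that chose them. In Control embryos all 150 genes were called higher at 72 than at 48 hpf by edgeR's quasi-likelihood test at a Benjamini-Hochberg adjusted p of 0.05, against 12.7% of the 18927 genes tested and 20% of the 7035 genes that passed the 10 CPM floor. The median log2 fold change was 3.73 for the 150 genes and 0.02 for all genes tested. Mean levels of the 150 genes in Control pools were 6.57 to 2656 CPM at 72 hpf, with a median of 25.04 CPM, and the median at 48 hpf was 1.77 CPM. At 48 hpf 52 of the genes averaged under 1 CPM, and the highest, *si:ch211-255g12.6* (ENSDARG00000094310), averaged 137 ± 18.6 CPM (SD, n = 4 pools), so that the set holds genes that were already transcribed as well as genes near the detection limit. The smallest difference was that of *si:dkey-33c14.3* (ENSDARG00000097118), at 0.93 ± 0.35 on the log2 scale (± SE throughout, adjusted p = 0.0470), and was the only one of the 150 calls lost under any alternative, with DESeq2 (adjusted p = 0.0982), with edgeR's own filter on low counts (adjusted p = 0.0559) and without any 1 of 6 of the 8 pools.

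**Figure D1:**
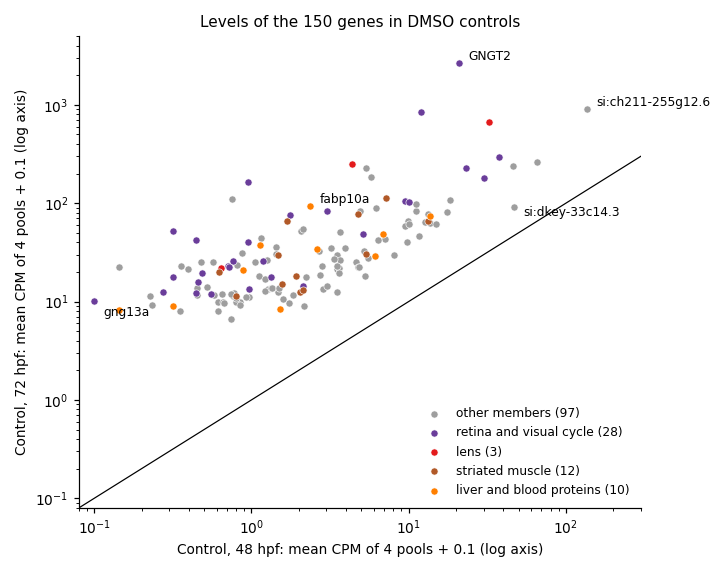
Mean CPM of each of the 150 genes over the 4 Control pools at 72 hpf (vertical, log axis) and at 48 hpf (horizontal, log axis), with 0.1 CPM added and points coloured by gene group. All 150 points lie above the line of equal levels, and they run from 6.57 to 2656 CPM at 72 hpf.

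Genes of the retina formed the largest group. Of the 150 genes, 28 belong to photoreceptors, to other retinal cells or to the visual cycle, which regenerates the light-absorbing retinoid. Of the 28, 6 were grouped after the 150 genes were known, and the others came from fixed lists. The log2 fold changes of the 28 in Control embryos had a median of 5.16 (range 2.56 to 9.08). *GNGT2* (ENSDARG00000103543), a gamma subunit of the cone G protein transducin, had 3119, 2490, 2841 and 2176 CPM in pools A to D at 72 hpf, against 17.9, 23.6, 22.12 and 19.8 CPM at 48 hpf. It alone held 22.9% of the counts of the 150 genes in Control pools at 72 hpf, and the 10 most abundant genes held 56.8%. *gnb3b* (ENSDARG00000002696), the beta subunit of cone transducin, had 164, 170.4, 182 and 142 CPM at 72 hpf, against 0.374, 2.16, 0 and 0.876 CPM at 48 hpf.

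Rod genes rose with the cone genes. *saga* (ENSDARG00000012610), a rod arrestin, which ends the signal of a light receptor, had 25.9, 25.7, 25.2 and 27.3 CPM at 72 hpf, against 1.12, 2.00, 0.503 and 0.701 CPM at 48 hpf, a log2 fold change of 4.55 ± 0.32 (adjusted p = 6.33e-21). *PRPH2* (ENSDARG00000014840), peripherin, which shapes the rims of outer segment discs, averaged 52.5 ± 6.93 CPM at 72 hpf and 0.218 ± 0.163 CPM at 48 hpf. Genes of the visual cycle rose too: *rbp3* (ENSDARG00000059163), which carries retinoids between retinal cells, changed by 5.24 ± 0.35 and *RPE65* (ENSDARG00000007480), the isomerase of the cycle, by 2.78 ± 0.30 on the log2 scale. *gng13a* (ENSDARG00000024740), a G protein gamma subunit named here after its values were seen, had no count in any Control pool at 48 hpf and 278 counts over the 4 pools at 72 hpf. The ratio was 76.7 when the 48 hpf pools together are set at the floor of 3 counts. From the counts as they stand, the lower limit of its 95% interval was 62.0 (counting error only). Outside the 150 genes and the excluded symbols, 28 of 45 other photoreceptor genes on the same list were also called higher and 1 was called lower, with a median log2 fold change of 2.37.

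Some structural proteins of the lens and of muscle were also among the 150 genes. Of the fixed lists, 1 of 43 lens genes and 2 of 50 skeletal muscle genes that passed the 10 CPM floor were in the set. The crystallins *crybgx* (ENSDARG00000036140) and *crygm2d11* (ENSDARG00000069827) averaged 253 ± 18.7 and 664 ± 93.2 CPM at 72 hpf, against 4.29 ± 2.46 and 32.5 ± 5.55 CPM at 48 hpf. The 12 striated muscle genes, 10 of them grouped after the 150 genes were known, had a median log2 fold change of 3.64. Among them *TNNI2* (ENSDARG00000045592), an inhibitory subunit of fast muscle troponin, had 79.5, 57.3, 73.4 and 54.4 CPM at 72 hpf and 0.747, 2.00, 1.51 and 2.102 CPM at 48 hpf. A group of 6 genes of smooth muscle and contractile cells had log2 fold changes of 2.36 to 6.04. It was put together from the 150 genes after these were known, so its rise is not a result about these cells. Among the 6 were *acta2*, *MYH11* and *TAGLN*, named here after their values were seen. Here *tpm1* (ENSDARG00000087402), an actin-binding tropomyosin, had the smallest relative spread between Control pools at 72 hpf of any of the 150 genes, at 239, 238, 245 and 237 CPM, against 40.5, 52.1, 47.1 and 44.5 CPM at 48 hpf.

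Some liver and gut genes were also in the set. Of the fixed lists, 2 of 35 liver plasma protein genes that passed the 10 CPM floor were members. For the liver metabolism list this was 4 of 27, and for the intestine list 4 of 21. *fabp10a* (ENSDARG00000038439), the liver fatty acid-binding protein, had 95.5, 109, 104 and 66.4 CPM in Control pools at 72 hpf, against 4.11, 0.832, 1.84 and 2.28 CPM at 48 hpf. *ttr* (ENSDARG00000037191), transthyretin, a hormone carrier made in the liver, had 222 counts over the 4 pools at 72 hpf and 1 count at 48 hpf, a ratio of 184 (95% interval 32.6 to 7293, counting error only). The liver enzymes *AGXT* (ENSDARG00000018478), *uox* (ENSDARG00000007024) and *HPD* (ENSDARG00000044935), which act on amino acids and urate, changed by 5.15, 3.75 and 2.42 on the log2 scale. In the intestine, *fabp6* (ENSDARG00000044566), a bile acid-binding protein, changed by 5.19 ± 0.55 and *vil1* (ENSDARG00000040466), villin of the brush border, by 3.12 ± 0.35. Of the other genes on the intestine list, 24 of 36 were called higher and 3 lower. Of the other genes on the liver plasma protein list, 6 of 47 were called higher and 11 lower. Such counts are not given for the liver metabolism list. The rise of the liver genes named here is therefore not a result about liver genes in general.

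Single genes of many other tissues were in the set. *matn1* (ENSDARG00000030215), a cartilage matrix protein, averaged 227 ± 11.9 CPM at 72 hpf and 5.26 ± 1.48 CPM at 48 hpf. *mbpa* (ENSDARG00000036186), myelin basic protein, averaged 11.6 ± 1.32 CPM at 72 hpf and 0.479 ± 0.289 CPM at 48 hpf, and *tcnba* (ENSDARG00000068088), a vitamin B12 carrier of the transcobalamin family, 109 ± 5.65 and 0.651 ± 0.253 CPM. The ammonia channels *RHCG* (ENSDARG00000003203) and *rhbg* (ENSDARG00000009018) changed by 4.69 ± 0.39 and 2.00 ± 0.13 on the log2 scale. The matrix genes of teeth and enamel *enam* and, named after their values were seen, *scpp5* and *odam* changed by 2.56 to 6.36, the olfactory marker *OMP* (ENSDARG00000105218) by 3.85 ± 0.37, and the clock genes *nr1d2a* (ENSDARG00000003820) and *dbpb* (ENSDARG00000057652) by 2.203 ± 0.19 and 1.84 ± 0.29. In all, 93 of the 150 genes were in a list or group of a tissue or process. The fixed lists held 50 of them, and the groups added after the genes were known held 44, with overlap. The other 57 were in none, and many of these, such as the 19 genes with clone-based names beginning si: or zgc:, have no assigned function in the sources used.

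The direction over time was shared by every exposure. All 150 genes had a higher mean CPM at 72 than at 48 hpf in Control and in each of the 9 compound exposures, of which 2 chose the genes. The share of all counts held by the 150 genes was 1.16 ± 0.0953% (SD, n = 4 pools) in Control pools at 72 hpf and 0.0909 ± 0.00539% at 48 hpf. At 72 hpf it was 0.950 ± 0.0645% in 13.3 µM 8-MBaP, 0.931 ± 0.0853% in 13.3 µM BaP and 1.01 ± 0.0742% in 13.3 µM 6-MBaP. The other exposures that did not choose the genes averaged 1.09 to 1.16%. The 2 that chose them, given as a description, averaged 1.204% (0.133 µM BaP) and 1.15% (0.133 µM 6-MBaP). All 4 pools of 13.3 µM 8-MBaP (0.863 to 1.01%) lay below the lowest Control pool (1.03%), while those of 13.3 µM BaP (0.840 to 1.05%) and of 13.3 µM 6-MBaP (0.897 to 1.06%) overlapped the Control pools. Within groups the genes varied moderately between pools: the median coefficient of variation at 72 hpf was 15.1 to 18.9% over the 10 exposures. The exceptions were *si:dkey-14d8.6* and the C-reactive protein genes *crp5* and *crp3*, made in the liver in acute phase responses, with median coefficients of 65.9, 56.4 and 55.7%, named here after their values were seen.

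**Figure D2:**
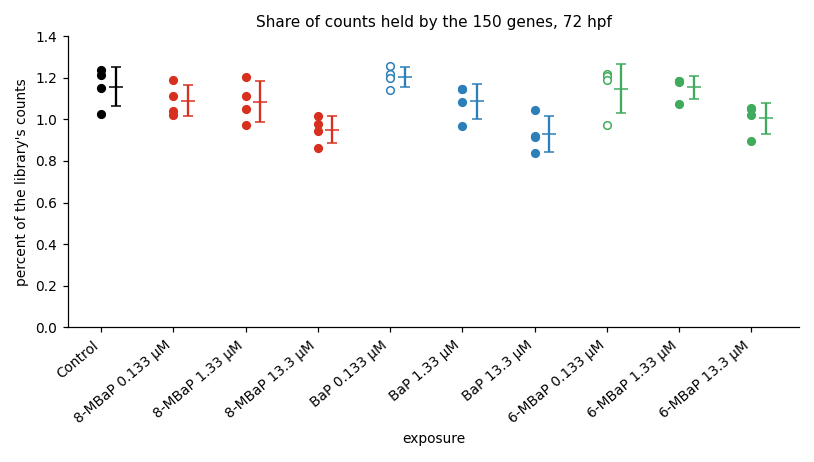
Share of each library's counts held by the 150 genes at 72 hpf, in percent, with 1 point per pool and the mean ± SD of 4 pools beside it. Open points are the BaP and 6-MBaP exposures at 0.133 µM whose values chose the genes, and the 4 pools of 13.3 µM 8-MBaP lie at 0.863 to 1.01%, below the 4 Control pools at 1.03 to 1.24%.

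Exposed embryos were then compared with Control embryos at 72 hpf. With 13.3 µM 8-MBaP, 40 of the 150 genes (26.7%) were called, against 2.46% of the 18144 genes tested and 4.63% of those that passed the 10 CPM floor. Of the 40, 29 were lower (19.3% of the 150 genes, against 1.17% of all genes) and 11 were higher (7.33%, against 1.28%). The median log2 fold change of the 150 genes was -0.25, against 0.00 for all genes, and 108 of 150 were below 0. Leaving out each pool in turn gave 32 to 41 calls.

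The genes that rose were led by a few with names that carry no function. *si:ch211-207n23.2* (ENSDARG00000097157) had 222, 213, 228 and 249.9 CPM in pools A to D at 13.3 µM 8-MBaP, against 24.2, 20.7, 18.8 and 41.1 CPM in Control pools. Its 4 exposed pools lay far above all Control pools, with a log2 fold change of 3.07 ± 0.17 (adjusted p = 1.84e-20). *si:dkey-7c18.24* (ENSDARG00000041433) had 45.3, 116, 71.6 and 90.3 CPM, against 9.73, 10.7, 10.4 and 11.01 CPM in Control pools, and *si:dkey-247k7.2* (ENSDARG00000103199) had 184, 199, 206 and 250.5 CPM, against 68.0, 49.1, 53.0 and 94.0 CPM. Neither overlapped Control, and their log2 fold changes were 2.90 ± 0.29 and 1.62 ± 0.18. *si:dkey-33c14.3* (ENSDARG00000097118), the gene with the smallest rise over time in Control, changed by 1.25 ± 0.26.

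A pair of conjugation genes rose with them. *gstp1.1* (ENSDARG00000103019), a pi-class glutathione S-transferase, had 28.0, 19.9, 18.3 and 19.6 CPM at 13.3 µM 8-MBaP, against 5.61, 7.84, 7.78 and 10.24 CPM in Control pools, with a log2 fold change of 1.39 ± 0.27 (adjusted p = 0.000750). *ugt1a1* (ENSDARG00000006220), a glucuronosyltransferase, had 76.1, 68.2, 82.9 and 75.0 CPM, against 43.5, 43.1, 48.7 and 36.6 CPM, with 0.77 ± 0.12 (adjusted p = 1.38e-05). In both genes the pools of the groups did not overlap. These were the genes of the 150 matched by name to the list of AHR-responsive genes, and 11 of its 18 other entries with a tested match were called higher. The match by name is incomplete, since it missed *cyp1a*. *aqp8a.2* (ENSDARG00000071592), an aquaporin, *ptgdsb.2* (ENSDARG00000071626), a lipocalin of the prostaglandin D synthase family, and *tmem176l.2* changed by 1.08, 0.96 and 0.81. Of the 4 intestine genes 2 rose, *tm4sf4* (ENSDARG00000040747), a tetraspanin-like membrane protein, by 0.71 ± 0.16 and *vil1* by 0.68 ± 0.19, and of the other intestine genes 6 of 36 were called higher and 3 lower. The calls of *tmem176l.2* and *vil1* were each lost without any 1 of 4 of the 8 pools (adjusted p up to 0.113 and 0.237).

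Retinal genes were the largest group among those that fell. At 13.3 µM 8-MBaP 10 of 28 were called lower and none higher, 27 of 28 had a log2 fold change below 0, and the median was -0.41. The arrestin *saga* had 17.0, 15.2, 11.4 and 8.35 CPM in the exposed pools, against 25.9, 25.7, 25.2 and 27.3 CPM in Control pools, and the groups did not overlap. Its log2 fold change was -1.06 ± 0.18 (adjusted p = 9.51e-05). Others called were another arrestin, *sagb*, the disc proteins *ROM1* and *rom1a*, both *RCVRN* genes (recoverin, a calcium sensor), *GUK1*, *rbp4l* and the cone gene *GNGT2* (ENSDARG00000103543), which fell by 0.54 to 0.96 on the log2 scale. *sagb*, *ROM1*, *GUK1* and *rbp4l* are named here after their values were seen. The other *GNGT2* gene (ENSDARG00000010680), with a mean of 292 ± 61.1 CPM in Control pools, and *gnb3b* were not called, with -0.43 ± 0.14 and -0.32 ± 0.12 (adjusted p = 0.0871 and 0.223). Among the other genes of the photoreceptor list, 3 of 44 were called lower and none higher, with a median of -0.27.

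Of the 12 striated muscle genes, 10 of them grouped after the 150 genes were known, 4 were called lower. Calls of the other genes on the muscle list are not given, so this is not a result about muscle genes in general. *mybpha* (ENSDARG00000058799), a myosin-binding protein H of muscle, had 3.87, 3.27, 7.64 and 2.94 CPM at 13.3 µM 8-MBaP, against 14.2, 8.65, 11.4 and 10.9 CPM in Control pools. All exposed pools lay below all Control pools, and the log2 fold change of -1.36 ± 0.25 was the largest fall among the 150 genes (adjusted p = 0.000263). *mybpc1* (ENSDARG00000045560), a myosin-binding protein C of slow fibres, changed by -0.98 ± 0.18, and *TNNI2* (ENSDARG00000005841) and *MYL2*, a regulatory light chain of myosin, by -0.69 ± 0.15 and -0.78 ± 0.19. The remaining 8 of the 12 striated muscle genes were not called, the median of the 12 was -0.25, and none of the 6 smooth muscle genes was called (median 0.02). The call of *MYL2* was lost without any 1 of 4 pools (adjusted p up to 0.0987) and that of *TNNI2* without 8-MBaP pool D (adjusted p = 0.0519). *fhl5* (ENSDARG00000014805), a LIM domain protein, had 11.8, 7.02, 8.01 and 14.1 CPM, against 29.4, 26.6, 29.0 and 15.6 CPM, with -1.35 ± 0.24 (adjusted p = 0.000116).

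Other falls were spread over organs. *OMP*, made in olfactory sensory neurons, had 8.25, 7.35, 7.04 and 6.80 CPM at 13.3 µM 8-MBaP, against 21.8, 11.6, 18.0 and 15.6 CPM in Control pools, with -1.23 ± 0.23 (adjusted p = 0.000305). The ammonia channel *rhbg* changed by -0.73 ± 0.12. *GNG11* (ENSDARG00000035798), a G protein gamma subunit that was in none of the tissue lists or groups, changed by -1.06 ± 0.15. Of 10 genes of liver and blood proteins 2 fell, *fabp10a* with a log2 fold change of -0.68 ± 0.16 and *HPD* with -0.59 ± 0.17, and *ttr* was not called at -0.71 ± 0.35 (adjusted p = 0.396). Calls of the other genes on the liver lists are not given for this comparison. The call of *HPD* was lost without any 1 of 6 pools, with DESeq2 (adjusted p = 0.0803) and with the libraries that chose the genes in the fit (adjusted p = 0.0565), and that of *fabp10a* without 8-MBaP pool B (adjusted p = 0.0872). Of the 3 lens genes *crygm2d11* fell, at -0.60 ± 0.11, and 25 of 50 other lens genes were called lower and none higher. The clock repressor *nr1d2a* fell, at -0.47 ± 0.13, a call lost without any 1 of 5 pools.

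**Figure D3:**
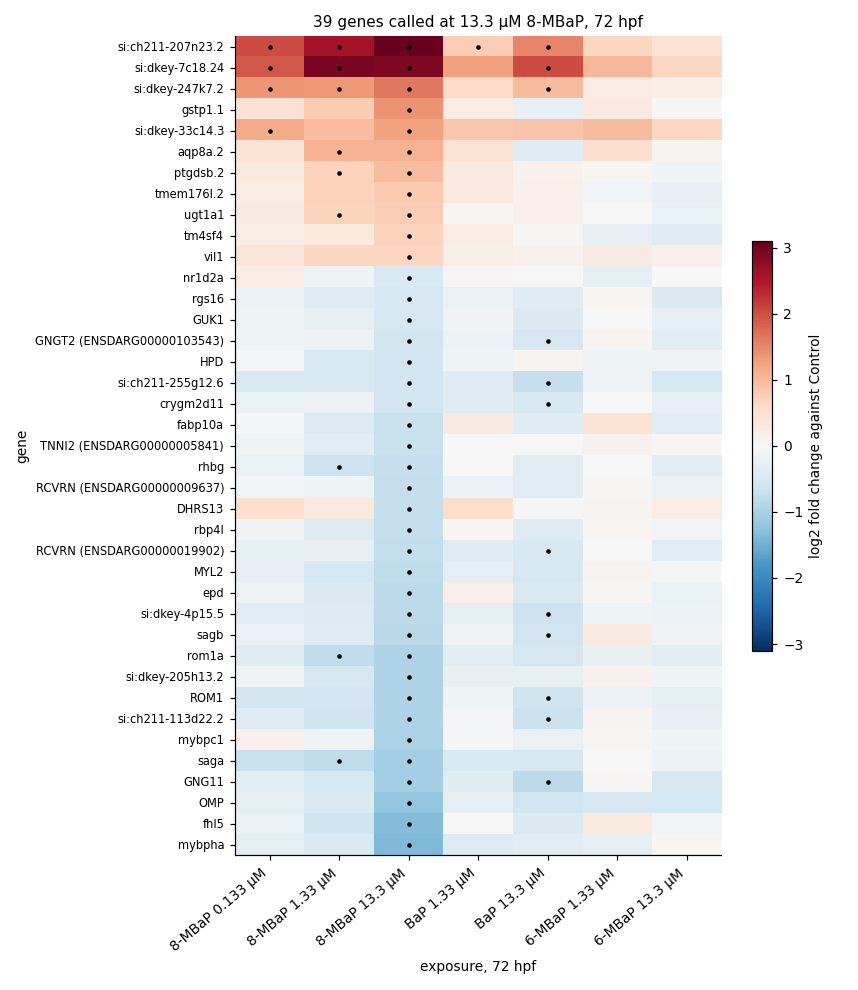
Log2 fold changes against Control at 72 hpf, as colour, of 39 of the 40 genes called at 13.3 µM 8-MBaP (rows) in 7 exposures (columns), with a dot where the gene was called. The 11 genes higher at 13.3 µM 8-MBaP are at the top and reach 3.07, and the lower ones at the bottom reach -1.36.

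Fewer genes were called at the lower concentrations of 8-MBaP. At 1.33 µM 13 of 150 genes were called (8.67%, against 0.948% of all genes), 8 higher and 5 lower, and at 0.133 µM 4 were called (2.67%, against 0.287%), all higher. The 4 at 0.133 µM were *si:ch211-207n23.2*, *si:dkey-7c18.24*, *si:dkey-247k7.2* and *si:dkey-33c14.3*. The call of *si:dkey-33c14.3* was lost without any 1 of 7 of the 8 pools (adjusted p up to 0.264). It was also lost with DESeq2 (adjusted p = 0.136) and with edgeR's own filter on low counts (adjusted p = 0.0505). *si:ch211-207n23.2* had 88.8, 102, 127 and 117 CPM at 0.133 µM and 138, 171, 174 and 169 CPM at 1.33 µM, with log2 fold changes against Control of 2.03 ± 0.16 and 2.59 ± 0.17. Every pool of each concentration lay above every Control pool. *saga* had 16.04, 15.6, 17.3 and 16.2 CPM at 0.133 µM, with -0.69 ± 0.18 (adjusted p = 0.0906), and 16.04, 20.1, 11.9 and 13.96 CPM at 1.33 µM, called at -0.78 ± 0.18 (adjusted p = 0.0108) but not without 8-MBaP pool C or D (adjusted p up to 0.0903).

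Transcription of immediate early and rapid response genes follows stimuli such as neuronal activity or stress. Of 4 such genes in the set, 2 were called higher at 1.33 µM and none at 13.3 µM 8-MBaP. These 4 were grouped after the genes of the set were known, so their count is not a result about this class of genes. *FOS* (ENSDARG00000031683) had 43.9, 34.7, 43.4 and 92.7 CPM at 1.33 µM 8-MBaP, against 23.6, 18.3, 22.3 and 21.1 CPM in Control pools, with 1.29 ± 0.22 (adjusted p = 0.000157). At 13.3 µM it had 32.2, 34.6, 31.4 and 42.4 CPM and was not called, at 0.68 ± 0.23 (adjusted p = 0.1204). *NPAS4* (ENSDARG00000055752) changed by 0.89 ± 0.22 at 1.33 µM (adjusted p = 0.0273) and by 0.56 ± 0.23 at 13.3 µM (adjusted p = 0.250), with the call at 1.33 µM lost without any 1 of 5 pools. Neither of the others was called: *SOCS3* had log2 fold changes of 0.50 (1.33 µM) and 0.31 (13.3 µM), and *egr4* had 0.30 and 0.02, in the same order. The difference between the 2 concentrations was not tested. *CKMT2*, mitochondrial creatine kinase of muscle, was called lower at 1.33 µM only, at -0.72 ± 0.19 (adjusted p = 0.0457), and at 13.3 µM had -0.35 ± 0.19 (adjusted p = 0.463), and its call was lost without any 1 of 7 pools.

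**Figure D4:**
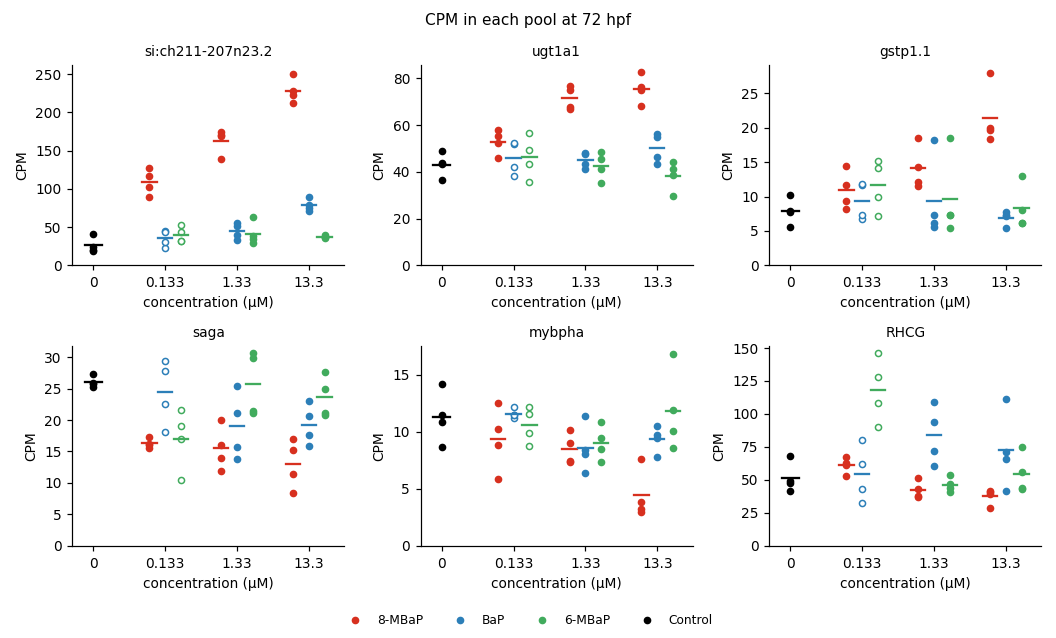
CPM in each pool at 72 hpf (vertical) against concentration in µM (horizontal, 0 is Control) for 6 genes, with bars at the mean of 4 pools and open points for the exposures whose values chose the genes. *si:ch211-207n23.2* is higher in every pool of 8-MBaP than in any Control pool, *saga* and *mybpha* are lower in every pool of 13.3 µM 8-MBaP, and *gstp1.1* and *ugt1a1* are higher in the pools of 13.3 µM 8-MBaP than in Control.

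With 13.3 µM BaP, 19 of the 150 genes were called at 72 hpf (12.7%, against 0.81% of all genes and 1.75% of those past the 10 CPM floor). Of these 16 were lower (10.7%, against 0.402%) and 3 higher (2%, against 0.408%). The count varied with single pools, from 8 without BaP pool A and 10 without BaP pool B, Control pool A or Control pool C up to 26. The median log2 fold change of the 150 genes was -0.31, and 114 were below 0. These values share their Control pools with those of 8-MBaP.

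Among called genes, the 3 with the largest falls with 13.3 µM BaP were *ttr*, *CELA1* and *ca4b*. *ttr* had 0.561, 2.14, 4.60 and 5.53 CPM at 13.3 µM BaP, against 7.42, 8.79, 10.99 and 5.12 CPM in Control pools, with -1.41 ± 0.37 (adjusted p = 0.0453). *CELA1* (ENSDARG00000017314), an elastase of the exocrine pancreas whose listed symbol escaped the exclusions, had 15.7, 7.49, 43.7 and 25.7 CPM, against 36.9, 56.3, 84.0 and 42.8 CPM, with -1.33 ± 0.30 (adjusted p = 0.0152). In both genes the exposed and Control pools overlapped, both calls were lost with DESeq2 (adjusted p = 0.0798 each), and leaving out 1 pool lost that of *ttr* in 5 of 8 cases and that of *CELA1* in 3 of 8. *ca4b* (ENSDARG00000042293), a membrane-bound carbonic anhydrase, changed by -1.12 ± 0.23 (adjusted p = 0.00378), a call lost without BaP pool A.

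Retinal genes were also among those that fell with BaP. Of 28, 6 were called lower and none higher, 27 were below 0 and the median was -0.46. Calls of the other genes of the photoreceptor list with BaP are not given. *saga* had 15.8, 20.6, 23.0 and 17.6 CPM and was not called, with -0.50 ± 0.18 (adjusted p = 0.241), and the lens gene *crybgx* had 99.9, 166, 196 and 137 CPM, against 249, 269.9, 264 and 228 CPM, with -0.82 ± 0.15 (adjusted p = 0.000664). No striated muscle gene was called. The 3 genes that rose were *si:dkey-7c18.24*, *si:ch211-207n23.2* and *si:dkey-247k7.2*, by 2.03, 1.51 and 0.98. At 1.33 µM BaP 1 gene was called (0.667%, against 0.138% of all genes), *si:ch211-207n23.2* at 0.76 ± 0.17 (adjusted p = 0.0274), with 55.9, 51.7, 39.7 and 33.6 CPM in the exposed pools. This call was lost without BaP pool A or B or Control pool A, B or C (adjusted p up to 0.31), and the count was 3 without BaP pool C or Control pool D and 2 without BaP pool D.

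With 6-MBaP none of the 150 genes was called at 13.3 µM (against 0.022% of all genes) or at 1.33 µM (against 0.00551%) by edgeR or by DESeq2. At an unadjusted p under 0.05 edgeR had 44 of 150 genes at 13.3 µM (29.3%, against 6.62% of all genes tested) and 12 at 1.33 µM (8%, against 5.36%). Leaving out 6-MBaP pool C gave 1 call at 13.3 µM, and leaving out Control pool D gave 1 at 1.33 µM. The absence of calls depended on the settings. Fits by edgeR without a filter on low counts, and fits of only the compared groups, called some of the 150 genes at both concentrations. Those counts are given with the other alternatives below. At 13.3 µM 113 of 150 were below 0 with a median of -0.17, and of the 28 retinal genes 26 were below 0 with a median of -0.22. *saga* had 24.9, 20.8, 21.1 and 27.6 CPM at 13.3 µM 6-MBaP, with -0.19 ± 0.17 (adjusted p = 0.895), and *FOS* had 39.1, 69.2, 35.8 and 38.0 CPM, with 1.05 ± 0.22 (adjusted p = 0.0539).

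**Figure D5:**
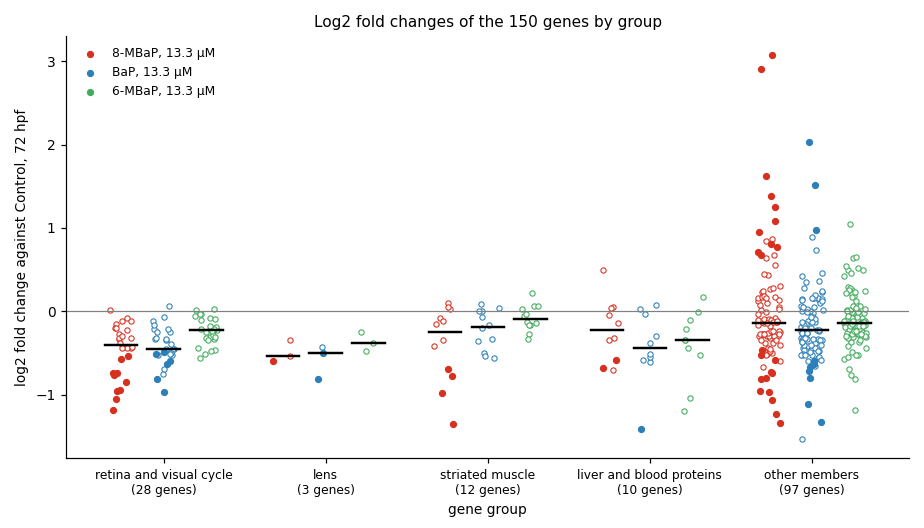
Log2 fold changes against Control at 72 hpf (vertical) of the 150 genes in 5 groups (horizontal) for 8-MBaP, BaP and 6-MBaP at 13.3 µM, with filled points for called genes and a bar at each median. The 28 retinal genes have medians of -0.41, -0.46 and -0.22 in that order of compounds.

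At 48 hpf most of the 150 genes were still low, and 142 had enough counts to be tested. With 13.3 µM 8-MBaP 9 were called (6.34%, against 1.41% of all genes), 4 higher and 5 lower; with 13.3 µM BaP 6 (4.23%, against 0.337%), 3 in each direction; and with 13.3 µM 6-MBaP 4 (2.82%, against 0.228%), all lower. *ptgdsb.2* had 18.18, 13.8, 14.7 and 15.4 CPM at 13.3 µM 8-MBaP, against 3.55, 5.66, 3.02 and 3.15 CPM in Control pools, with 2.00 ± 0.25 (adjusted p = 6.56e-08). *si:ch211-207n23.2* already had 37.6, 39.7, 42.6 and 23.4 CPM, against 3.55, 4.50, 4.69 and 1.58 CPM, with 3.31 ± 0.26. *si:dkey-57a22.15* (ENSDARG00000093318) was called lower with each compound, at -1.15 ± 0.29 for 8-MBaP, -1.41 ± 0.30 for BaP and -1.21 ± 0.29 for 6-MBaP. It had 4.27, 4.68, 4.96 and 6.15 CPM with 8-MBaP, 1.61, 6.70, 3.36 and 5.53 CPM with BaP and 4.796, 4.79, 4.50 and 5.69 CPM with 6-MBaP, against 10.6, 7.16, 10.7 and 15.8 CPM in Control pools, and in each compound all 4 pools lay below all Control pools. These 3 comparisons share their Control pools, and the calls were lost without any 1 of 4, 3 and 7 of the 8 pools compared. The call with 6-MBaP was also lost with edgeR's own filter on low counts (adjusted p = 0.0551) and with the pool letter as a block (adjusted p = 0.0525). DESeq2 gave no adjusted p for it. Without BaP pool C or Control pool D 3 genes were called with BaP, and with 6-MBaP the count was 2 without 6-MBaP pool A, C or D or Control pool D and 1 without Control pool C. *crygm2d11* was called lower with BaP and 6-MBaP, at -1.01 ± 0.18 and -0.87 ± 0.17, the call with 6-MBaP being lost without 6-MBaP pool B or Control pool C.

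Whether exposure altered the size of the developmental rise was tested as the change over time in exposed pools against that in Control pools. No gene of the 150 was called for 13.3 µM 8-MBaP (against 0.0898% of all genes) or for 13.3 µM BaP (against 0% of all genes) by edgeR, with 18 and 25 genes at an unadjusted p under 0.05 (12% and 16.7%, against 6.51% and 7.52% of all genes tested). DESeq2 called 2 for 8-MBaP, *sagb* at -1.33 and *rbp4l* at -1.10 (adjusted p = 0.0151 and 0.0425), and 0 for BaP. Leaving out 8-MBaP pool B or Control pool C at 48 hpf gave 1 call by edgeR for 8-MBaP. Without a filter on low counts edgeR called some of the 150 genes for each compound, with the counts given below. The standard errors of this test were larger than those within 72 hpf: *GNGT2* (ENSDARG00000103543) had 0.04 ± 0.21 for 8-MBaP and -0.10 ± 0.21 for BaP.

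The compounds were also compared with each other at matched concentrations and time, in 6 pairs, each adjusted over all genes on its own. At 13.3 µM and 72 hpf 8-MBaP differed from BaP in 14 of the 150 genes (9.33%, against 0.827% of all genes), 7 higher and 7 lower, and in 9 without 8-MBaP pool D. *gstp1.1* had 28.0, 19.9, 18.3 and 19.6 CPM with 8-MBaP and 7.71, 5.48, 7.23 and 7.32 CPM with BaP, a difference of 1.64 ± 0.28 (adjusted p = 0.000168). *aqp8a.2* had 21.7, 16.5, 15.3 and 15.8 CPM with 8-MBaP and 4.06, 7.22, 5.92 and 8.21 CPM with BaP, a difference of 1.46 ± 0.20 (adjusted p = 2.89e-06). In both, every 8-MBaP pool lay above every BaP pool, and *si:ch211-207n23.2* and *fabp6* were also higher with 8-MBaP, by 1.56 and 1.397. Lower with 8-MBaP were *mybpha* at -1.02 ± 0.25 and *RHCG* at -0.94 ± 0.18, with 40.6, 41.5, 38.9 and 28.8 CPM of *RHCG* with 8-MBaP and 111, 41.9, 71.5 and 66.0 CPM with BaP. Here neither compound was called for *RHCG* against Control (adjusted p = 0.166 and 0.390). The call of *RHCG* between the compounds was lost without BaP pool A (adjusted p = 0.0623), that of *fabp6* without any 1 of 3 pools (adjusted p up to 0.362) and with DESeq2 (adjusted p = 0.108), and that of *mybpha* without any 1 of 6 pools (adjusted p up to 0.165).

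None of the 28 retinal genes was called between 8-MBaP and BaP at 13.3 µM, and the difference for *saga* was -0.56 (adjusted p = 0.193) with an unadjusted 95% interval of -0.92 to -0.19. For 123 of the 150 genes the interval lay within 1 on the log2 scale in either direction. This limit is wider than the retinal medians against Control, -0.41 with 8-MBaP and -0.46 with BaP, so intervals within it can still hold differences of that size. Between 8-MBaP and 6-MBaP, which differ only in the carbon that carries the methyl group, 30 genes were called at 13.3 µM (20%, against 1.41% of all genes), 10 higher and 20 lower, among them 7 retinal genes, all lower. *saga* differed by -0.87 ± 0.18 (adjusted p = 0.00303), *mybpha* by -1.38 ± 0.25, *ugt1a1* by 0.98 ± 0.12 and *si:ch211-207n23.2* by 2.62 ± 0.16. *mybpha* had 3.87, 3.27, 7.64 and 2.94 CPM with 8-MBaP, against 16.8, 11.9, 10.0 and 8.56 CPM with 6-MBaP, and *ugt1a1* had 76.1, 68.2, 82.9 and 75.0 CPM, against 44.2, 41.3, 29.5 and 38.4 CPM, without overlap in either gene. Between 6-MBaP and BaP 4 were called (2.67%, against 0.127%), with *FOS* higher in 6-MBaP at 1.07 ± 0.22 (adjusted p = 0.0155) and the 3 genes led by *si:dkey-7c18.24* lower, and in 132 genes the interval lay within 1 in either direction. The 4 calls were 1 without 6-MBaP pool B and 2 without BaP pool A, C or D, and that of *FOS* was lost without any 1 of these pools and with DESeq2 (adjusted p = 0.0812).

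At 1.33 µM 8-MBaP differed from BaP in 7 genes (4.67%, against 0.849% of all genes) and from 6-MBaP in 16 (10.7%, against 0.915%), and 6-MBaP from BaP in 2 (1.33%, against 0.0606%). *RHCG* had 51.4, 43.1, 37.2 and 38.1 CPM with 8-MBaP and 109, 94.0, 60.4 and 71.8 CPM with BaP, a difference of -1.01 ± 0.18 (adjusted p = 0.000544), and *fabp10a* and *rhbg* were also lower with 8-MBaP, at -0.69 and -0.64, with the call of *fabp10a* lost without 8-MBaP pool C or D or BaP pool B. *fabp10a* had 76.9, 86.0, 66.0 and 60.4 CPM with 8-MBaP and 111, 109, 146 and 133 CPM with 6-MBaP, a difference of -0.86 ± 0.16 (adjusted p = 0.000759). *NPAS4* and *egr4*, both immediate early genes, were the genes lower with 6-MBaP than with BaP, at -1.18 ± 0.24 and -1.23 ± 0.23. DESeq2 gave neither an adjusted p, both calls were lost without 6-MBaP pool C or BaP pool A, and that of *NPAS4* also without 6-MBaP pool B. In the 2 exposures that chose the genes, given as a description, *si:ch211-207n23.2* had 45.0, 23.0, 31.1 and 43.4 CPM at 0.133 µM BaP and 31.6, 43.9, 52.2 and 31.4 CPM at 0.133 µM 6-MBaP.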

How the data were processed

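The deposited table held 3′ read counts (BRB-seq, in which pooled barcoded libraries are sequenced from the transcript 3′ end) for 32520 Ensembl gene identifiers in 80 libraries. Per the authors' methods, reads were assigned to genes and tallied without normalization; the aligner and the genome build are not given in the sources used here. The deposited counts were used as whole numbers, and every column matched 1 sample. Of 5 pools collected per group, the authors sequenced the 4 with the most RNA. Library totals were 4838752 to 8779891 counts. At this depth, differences that were small against the spread of 4 pools, or of genes with few counts, could be missed.

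Genes were chosen and lists were drawn up with earlier results of these data known. Member genes were ranked on the 4 groups of BaP and 6-MBaP at 0.133 µM. These groups were left out of all fits except the alternative with all groups in the fit, and no comparison used them. For the remaining groups edgeR 4.0.16 (R 4.3.3, limma 3.58.1) was run with TMM factors and the quasi-likelihood F test. Genes needed 5 or more counts in at least 2 libraries. Fits were made separately for 72 hpf (32 libraries), 48 hpf (32 libraries) and both times (64 libraries). Adjusted p-values are Benjamini-Hochberg values over all genes of a comparison, and a gene was called at 0.05 or below. CPM values are counts per 1000000 of the library total, and intervals are ± 1.96 SE. The scripts were tested on simulated data. Genes named were the 12 with the highest rule value, the 8 most abundant in Control at 72 hpf, up to 4 per gene list, the 8 largest rises and 8 largest falls called with 13.3 µM 8-MBaP at 72 hpf, the 3 largest rises and falls called in each other comparison, and the 3 on each side of the rank limit. Tissue groups added after the genes were known complete the fixed lists.

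Letters A to D were checked as a pairing, over 180 pairs of same-letter pools from different groups per time. Their deviations from the group means correlated on average by 0.0039 at 48 hpf and by -1.06e-05 at 72 hpf, so letters were not used as a block. Alternatives were DESeq2 1.42.0, size factors by relative log expression, the automatic edgeR filter (filterByExpr), testing without a filter, a block for the letter, only the compared groups in a fit, all groups in a fit, the exclusion of symbols after ranking, and each library left out in turn. No sequences are shown. The values of 1 gene of the set, which stays in the counts, are not reported here.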

Additional observations from a re-analysis of the deposited data

Results flagged for a closer look

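Among 87 groups of 4 pools, those whose values are given above and all 20 for the share of counts, 7 had 1 pool farther from the other 3 than Dixon's 95% limit allows, which chance does in about 1 of 20 groups. The 150 genes held 0.971% of the counts in pool C of 0.133 µM 6-MBaP at 72 hpf, against 1.19 to 1.22% in the other pools of that group, which is 1 of those that chose the genes. They held 1.07% in pool B of 1.33 µM 6-MBaP at 72 hpf, against 1.18% in the other 3 pools.

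*FOS*, an immediate early transcription factor, had 92.7 CPM in pool D of 1.33 µM 8-MBaP and 34.7 to 43.9 CPM in the other pools, and its log2 fold change against Control was 0.88 without that pool (adjusted p = 0.0178, edgeR). It had 69.2 CPM in pool B of 13.3 µM 6-MBaP and 35.8 to 39.1 CPM in the others. *gstp1.1*, the glutathione S-transferase, had 28.0 CPM in pool A of 13.3 µM 8-MBaP and 18.3 to 19.9 CPM in the others, and *si:ch211-207n23.2* had 138 CPM in pool A of 1.33 µM 8-MBaP and 169 to 174 CPM in the others. Both calls against Control were kept without those pools. *tpm1*, the tropomyosin, had 245 CPM in Control pool C at 72 hpf and 237 to 239 CPM in the others. What set these pools apart was not tested.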

How the results depend on the processing

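No change of sign occurred among the 215 log2 fold changes of named genes under any alternative run. All 215 calls were kept without a filter on low counts, 214 with relative log expression factors, 210 with the letter as a block, 207 with filterByExpr and 207 with all groups in the fit, 205 with only the compared groups and 198 with DESeq2, which gave no adjusted p for 4. Over 1720 values without 1 library, 249 calls were lost. These include the rise over time in Control of the 69 named genes, where only the call of *si:dkey-33c14.3* was lost, in 6 of 8 cases. The comparisons of exposures therefore lost a larger share than the pooled figure. The limits are 4 pools per group from 1 plate, 3′ counts of whole embryos, and low counts at 48 hpf.

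Counts of called genes among the 150 moved with the filter, the groups fitted and the tool, and the cause was not tested. The shares of all genes called under these settings are not given. The counts below therefore show only how the calls depended on the settings, and are not a result particular to the 150 genes. At 72 hpf against Control, fits without a filter called 58 genes with 13.3 µM 8-MBaP, 30 with 1.33 µM and 10 with 0.133 µM, 36 and 12 with 13.3 and 1.33 µM BaP, and 12 and 3 with 13.3 and 1.33 µM 6-MBaP. At 48 hpf they called 14 with 8-MBaP, 10 with BaP and 7 with 6-MBaP. Between compounds they called 30 for 8-MBaP against BaP and 11 for 6-MBaP against BaP at 13.3 µM, and 19 for 8-MBaP against BaP, 27 for 8-MBaP against 6-MBaP and 12 for 6-MBaP against BaP at 1.33 µM, and 6 and 4 for the change over time with 8-MBaP and BaP. With only the compared groups fitted, the 72 hpf counts were 23 and 8 for 1.33 and 0.133 µM 8-MBaP, 3 for 1.33 µM BaP, 3 and 1 for 13.3 and 1.33 µM 6-MBaP, and 11 for 8-MBaP against BaP at 1.33 µM. DESeq2 called 14 with 8-MBaP and 2 with 6-MBaP at 48 hpf, 14 for 8-MBaP against BaP at 1.33 µM, and 2 for the change over time with 8-MBaP. filterByExpr called 2 with 6-MBaP at 48 hpf, relative log expression factors gave 2 for 1.33 µM BaP, and all groups in the fit gave 0 for 1.33 µM BaP and 1 for 13.3 µM 6-MBaP. Leaving out symbols after ranking kept 131 genes, of which 34 were called with 13.3 µM 8-MBaP.

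With the letter as a replicate block, 39 genes were called with 13.3 µM 8-MBaP and 18 with 13.3 µM BaP at 72 hpf, and no count of calls moved by over 1.5 times. The check of pairing above found no shared deviation by letter on average, and the labels do not say what the letters stand for.

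Leaving out 1 library at a time gave 149 to 150 calls for Control over time. Against Control at 72 hpf it gave 32 to 41, 10 to 15 and 3 to 4 for 13.3, 1.33 and 0.133 µM 8-MBaP, 8 to 26 and 0 to 3 for 13.3 and 1.33 µM BaP, and 0 to 1 for each of 13.3 and 1.33 µM 6-MBaP. At 48 hpf it gave 7 to 10 with 8-MBaP, 3 to 5 with BaP and 1 to 3 with 6-MBaP. Between compounds at 13.3 µM it gave 9 to 15 for 8-MBaP against BaP, 22 to 28 for 8-MBaP against 6-MBaP and 1 to 4 for 6-MBaP against BaP, and at 1.33 µM 5 to 9, 12 to 16 and 0 to 3 in the same order. For the change over time it gave 0 to 1 with 8-MBaP and 0 to 0 with BaP.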
